A study of Homo sapiens with 16 samples.

Results

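The tubulins and microtubule-associated proteins examined here were 40 genes chosen by symbol: 13 tubulin isotypes, 9 structural microtubule-associated proteins (MAPs), 3 doublecortin family genes, 5 collapsin response mediators, 3 end-binding proteins, 3 minus-end binding proteins, 2 severing enzymes, 1 tubulin ligase and the transgelin TAGLN3. All 40 were among the 27037 genes in the table, and all 40 were among the 15415 genes with enough counts to be tested. They were split into 22 neuronal members, which textbook expression patterns place in neurons, and 18 general members used by most cells. The classes were drawn up with earlier results of these data known, so a division by class below describes the data and is not an independent test. RNA was sequenced from SK-N-BE(2)C, a human line of adrenergic neuroblastoma with amplified MYCN. Cells were given the DMSO vehicle, 10 µM retinoic acid (RA, a differentiating agent), 1 µM palbociclib (PB, which blocks the kinases CDK4 and CDK6) or PB + RA, for 5 days, with 4 replicates in each group. All groups share this 1 line, so the values describe no other neuroblastoma. Each library held 19.5 to 31.6 M counts.

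Microtubules are built from α- and β-tubulin heterodimers, and γ-tubulin seeds them at organizing centers. Each family has several genes whose products co-assemble. Dividing cells use general isotypes for the spindle, while neurons add isotypes such as TUBB3 and coat their stable axonal and dendritic microtubules with MAPs, tau (MAPT) and doublecortin (DCX). Severing enzymes, end-binding proteins and enzymes that modify tubulin tails shape the array further.

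The 7 defining markers of the adrenergic type summed to 2269 to 2521 CPM (counts scaled by the library's total to a size common to all libraries) in DMSO, 2563 to 2907 in RA, 2898 to 3134 in PB and 2761 to 3682 in PB + RA. The largest parts of the DMSO sum were PHOX2A, at a mean of 881 CPM, and HAND2, at 790. The adrenergic markers did not all move with the sum. RA raised DBH and TH and lowered GATA3, with a median log2 of -0.12 over the list. PB raised DBH, TH and GATA3, and PB + RA raised DBH and TH but lowered ISL1 against PB. The 7 mesenchymal markers found in the table summed to 1033 to 1265 CPM in DMSO, 1772 to 2187 in RA, 864 to 1027 in PB and 1090 to 1511 in PB + RA. Of these 7, RA raised 4, PB raised 1 and lowered 4, and PB + RA raised 2 and lowered 2. Of all genes tested RA raised 10.8%, PB raised 16.9% and lowered 11.3%, and PB + RA raised 24% and lowered 17.9%. FN1 alone averaged 175 CPM in DMSO and 733 in RA. The 5 Schwann and glial markers summed to 14.5 to 19.1 CPM in DMSO, 18.5 to 22.3 in RA, 27.5 to 34.1 in PB and 30.1 to 34.5 in PB + RA. None of these markers was at 0 in every library. The 8 proliferation markers summed to 2177 to 2281 CPM in DMSO, 1699 to 1806 CPM in RA, 829 to 1035 CPM in PB and 318 to 475 CPM in PB + RA. This last order of the groups recurs in several members below. The part of any of these marker shifts in the members' levels was not tested. Fewer dividing cells and less RNA per cell cannot be told apart in bulk samples. Within every group the libraries of replicates 1 and 2 were closer to each other than to those of replicates 3 and 4. The chi-square per degree of freedom between counts was 3.11 to 9.66 within these pairs and 12.5 to 31.1 across them, so no library was a copy of another. The labels name no batch.

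To ask what CDK4/6 inhibition does to this gene set, PB-treated cells were set against DMSO. A gene was called at an adjusted p below 0.05 with an absolute log2 fold change above 0.5. PB raised 15 of the 40 members, against 16.9% of all genes tested, and lowered 6, against 11.3%. The median log2 fold change was 0.33 over the members and 0.03 over all genes. The calls divided by class. Among neuronal members 11 of 22 rose and 0 fell, with a median of 0.53. Of the neuronal members 1, DPYSL5, lay below DMSO at an unadjusted p under 0.05, and DESeq2 and limma-voom each called it lower. Among general members 4 of 18 rose and 6 fell, with a median of -0.01. The 4 rises included MAPRE2 and CAMSAP3, both at the fold minimum. DESeq2 called 2 higher, as did the fit without DMSO replicate 3, without PB replicate 1 or without any 1 of the RA or PB + RA libraries, which is 11.1% of these members.

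RA alone raised 9 of the 40 members, against 10.8% of all genes, and lowered 0, against 2.54%. The median was 0.17 over the members and 0.01 over all genes. All 9 that rose were neuronal, and the median of the neuronal members was 0.42. The general members had 0 calls in either direction and a median of -0.09. At an unadjusted p under 0.05, 4 general members lay above DMSO and 6 below, and DESeq2 and limma-voom each called 0. Over all members 7 lay below, again with 0 called lower by DESeq2 and by limma-voom. The deepest of these were TUBG1 at -0.47 and TUBB4B at -0.43, just short of the 0.5 minimum.

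PB + RA raised 14 members, against 24% of all genes, and lowered 8, against 17.9%. Of the 22 neuronal members 12 rose and 1 fell, with a median of 0.60. Of the 18 general members 2 rose and 7 fell, with a median of -0.12. The median over all genes was 0.04. The values of the PB + RA and DMSO libraries did not overlap for 33 of the 40 members, against 58.2% of all genes tested. Without overlap between PB and DMSO were 28 members, against 49.9%, and between RA and DMSO 25, against 37.2%. These 3 comparisons share the DMSO libraries, so their counts are not independent of each other. The plot of the log2 fold changes of the 40 members shows the division by class in each comparison.

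**Figure D1:**
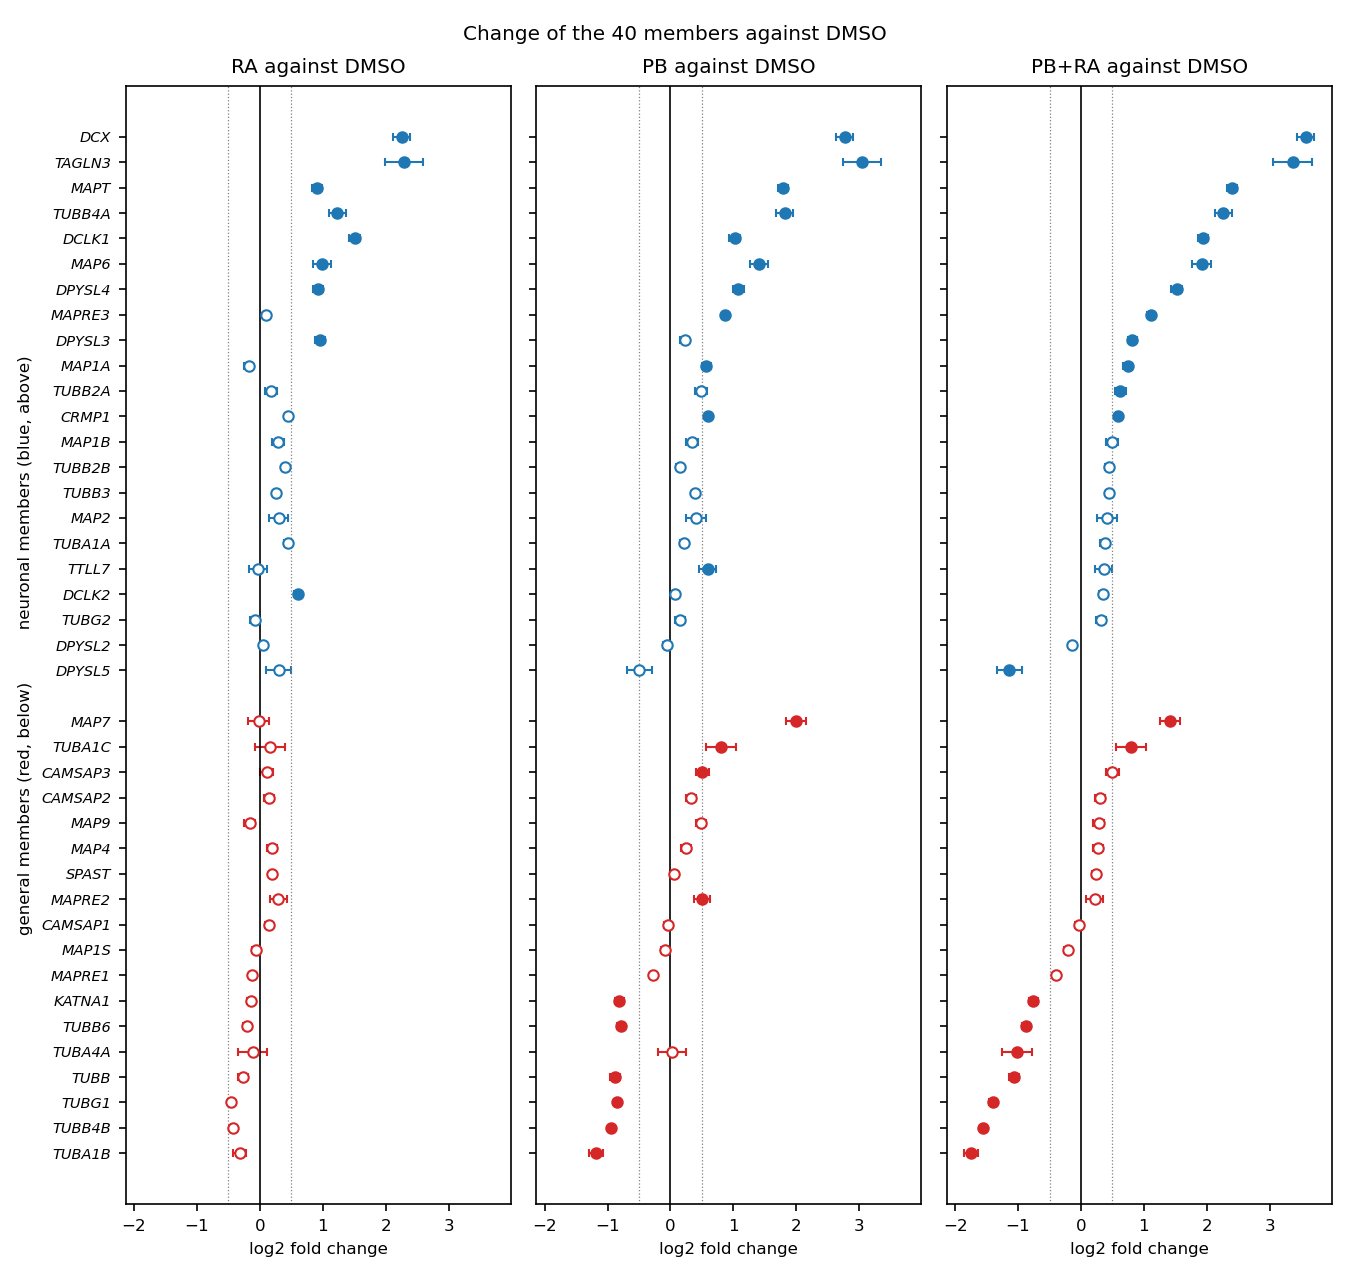
Log2 fold change (x axis, points with SE bars) of each of the 40 members (y axis) in RA, PB and PB + RA against DMSO. Neuronal members are in blue and general members in red, filled points were called, and dotted lines mark log2 changes of 0.5 in either direction. DCX and TAGLN3 lie furthest to the right in PB + RA, at 3.57 and 3.36, and TUBA1B furthest to the left, at -1.75.

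The largest rises in PB + RA were those of DCX and TAGLN3, and the largest falls those of TUBA1B and TUBB4B. The 250 bases upstream of their starts are shown to let these opposite ends be read side by side. They come from RefSeq on GRCh38.p14, 5′ to 3′ on the gene's strand, and where a gene had several starts the one furthest upstream was taken. Capitals mark matches, on either strand, to an E2F site (TTTCCCGC, TTTGCCGC, TTTCGCGC or TTTGGCGC), a cell cycle homology region or CHR (TTTGAA or TTCGAA) or a CCAAT box (CCAAT). These motifs are known from promoters of cell-cycle genes.
DCX (chrX:111412193-111412442, - strand): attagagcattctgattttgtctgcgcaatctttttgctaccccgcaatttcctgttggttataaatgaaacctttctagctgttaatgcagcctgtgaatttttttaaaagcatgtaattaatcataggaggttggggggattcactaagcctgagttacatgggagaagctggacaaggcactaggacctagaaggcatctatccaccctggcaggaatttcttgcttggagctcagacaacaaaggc
TAGLN3 (chr3:111998672-111998921, + strand): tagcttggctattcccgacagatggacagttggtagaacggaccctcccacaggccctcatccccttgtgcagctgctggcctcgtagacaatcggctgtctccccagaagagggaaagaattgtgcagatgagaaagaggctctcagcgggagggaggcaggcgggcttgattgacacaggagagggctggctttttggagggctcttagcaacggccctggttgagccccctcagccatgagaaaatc
TUBA1B (chr12:49131396-49131645, - strand): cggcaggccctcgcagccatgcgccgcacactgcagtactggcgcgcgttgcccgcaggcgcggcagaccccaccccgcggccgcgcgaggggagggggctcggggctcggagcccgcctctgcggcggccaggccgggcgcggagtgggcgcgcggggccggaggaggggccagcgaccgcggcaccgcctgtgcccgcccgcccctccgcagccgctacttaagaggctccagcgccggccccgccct
TUBB4B (chr9:137241037-137241286, + strand): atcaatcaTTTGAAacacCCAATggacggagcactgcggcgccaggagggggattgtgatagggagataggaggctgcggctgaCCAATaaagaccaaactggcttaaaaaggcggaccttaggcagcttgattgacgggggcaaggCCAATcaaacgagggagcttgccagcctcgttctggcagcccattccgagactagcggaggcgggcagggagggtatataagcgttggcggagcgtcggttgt

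Of these 4 windows only that of TUBB4B held matches, a CHR element and 3 CCAAT boxes. TUBA1B, which fell further, held 0, as did the windows shown for DCX and TAGLN3, which have a CCAAT box at another start. Promoters were found for 36 members. In windows of the same length over all their starts, a CCAAT box was present in 7 of 12 members called higher, 5 of 8 called lower and 9 of 16 not called, against 37% of all genes. A CHR element was present in 2, 1 and 3 of them, against 17.2% of all genes, and an E2F site in 1 of each, against 3.4%. For the CCAAT box the shares of members called higher, called lower and not called were 58.3%, 62.5% and 56.2%. A match describes letters only, and its absence says nothing about the factor.

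Among the α-tubulins the most abundant gene was TUBA1B in DMSO and TUBA1A in every treated group. TUBA1A, the α-tubulin of developing neurons, lies on chromosome 12 (hg19, 49578469 to 49582863), 53.3 kb from TUBA1B, the main general isotype (49521565 to 49525180), on the same strand. TUBA1B measured 2113, 2051, 2134 and 2094 CPM in DMSO, 1762, 1629, 1672 and 1700 in RA, 830, 836, 970 and 1051 in PB, and 539, 525, 738 and 748 in PB + RA. No group overlapped another. It fell by 1.19 ± 0.106 (SE) on the log2 scale under PB (adjusted p = 1.64e-07) and by 1.75 ± 0.108 under PB + RA (adjusted p = 7.31e-10). With RA its log2 was -0.32 ± 0.105 (adjusted p = 0.0266), short of the fold minimum.

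TUBA1A measured 1330, 1284, 1561 and 1400 CPM in DMSO, 1896, 1838, 1926 and 1985 in RA, 1536, 1533, 1695 and 1702 in PB, and 1727, 1676, 2027 and 1963 in PB + RA. The RA and PB + RA libraries lay above all DMSO libraries, while PB overlapped DMSO. Its log2 values of 0.45 ± 0.0701 in RA and 0.38 ± 0.0701 in PB + RA passed the adjusted p (0.00015 and 0.000158) but not the fold minimum.

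Per kilobase of exon, TUBA1A took 38.1% ± 1.68 (SD, n = 4) of α-tubulin transcripts in DMSO, 51.1% ± 0.911 in RA, 61.6% ± 1.45 in PB, and 72.7% ± 2.02 under PB + RA. The ranges of the 4 groups did not overlap, running from 36.8 to 40.4%, 49.9 to 52.0%, 59.7 to 62.8% and 70.5 to 74.4%. The ratio of TUBA1A to TUBA1B, also per kilobase, was 0.585 to 0.684 in DMSO and 2.45 to 2.99 in PB + RA. Total α-tubulin was 956 ± 40.5 CPM per kb in DMSO, 977 ± 26.2 in RA, 687 ± 55.3 in PB, and 667 ± 79.7 under PB + RA. The groups under PB lay below both groups without it.

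The minor α-tubulins moved in opposite directions. TUBA1C, a general isotype at 6.40 to 20.2 CPM, rose under PB (log2 0.80 ± 0.237, adjusted p = 0.00959) and PB + RA (0.80 ± 0.236, adjusted p = 0.00748). It overlaps the far more abundant TUBA1A on the opposite strand, and which strand was counted is not given in the sources used here, so its level is uncertain. In replicates 1 and 2 alone its call was lost in both comparisons (adjusted p = 0.255 and 0.147). TUBA4A measured 6.60, 9.46, 9.08 and 7.97 CPM in DMSO and 2.54, 3.76, 6.10 and 4.25 in PB + RA, a fall of 1.02 ± 0.234 on the log2 scale (adjusted p = 0.00113). With PB or RA alone its log2 was 0.03 and -0.12. It overlaps STK16, at 44.2 CPM, on the opposite strand, and is uncertain for the same reason.

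Among the β-tubulins the 3 general isotypes fell under PB and under PB + RA. TUBB4B, a widely expressed isotype and per kilobase of exon the most abundant of the family over the 16 libraries, measured 692, 655, 634 and 650 CPM in DMSO, 523, 490, 453 and 493 in RA, 329, 347, 343 and 350 in PB, and 222, 234, 227 and 226 in PB + RA. Its groups stood fully apart. The log2 fold change was -0.94 ± 0.0471 under PB (adjusted p = 3.82e-10) and -1.56 ± 0.0478 under PB + RA (adjusted p = 4.54e-13). TUBB6 fell by 0.79 and 0.87 on the log2 scale, and TUBB by 0.88 and 1.06. TUBB lay at 17.9 to 43.2 CPM. Of its possible 50-base stretches 23.8% recur in other genes, the pseudogenes TUBBP1 and TUBBP2 among them. How reads shared with copies were counted is not stated, so its level is uncertain. The same limit holds for other tubulins, among them TUBA1B (55.9%), TUBB2A (39.2%), TUBB3 (33.1%) and TUBA1A (29.7%).

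The neuronal β-tubulins had mean levels above DMSO in every treatment. TUBB3, class III β-tubulin and the protein the study stained as a neuronal marker, measured 765, 756, 756 and 705 CPM in DMSO, 944, 921, 860 and 864 in RA, 939, 963, 1010 and 992 in PB, and 1090, 1013, 1039 and 986 in PB + RA. Every treated library lay above every DMSO library, while PB and PB + RA overlapped. Its log2 values of 0.26, 0.39 and 0.44 (SE 0.0495 to 0.0496) all stayed under the fold minimum, with adjusted p of 0.000809, 5.62e-06 and 7.09e-07. TUBB2B likewise reached 0.41 in RA and 0.44 in PB + RA without a call, and 0.15 in PB. TUBB2A was at 0.48 in PB and rose by 0.63 ± 0.0935 in PB + RA (adjusted p = 1.78e-05).

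TUBB4A, an isotype found mainly in brain, was the β-tubulin that rose most. It measured 27.4, 27.4, 20.2 and 18.9 CPM in DMSO, 58.8, 65.7, 50.2 and 47.0 in RA, 88.8, 87.6, 79.6 and 74.8 in PB, and 131, 118, 108 and 104 in PB + RA. The 4 groups did not overlap, and in each the libraries of replicates 1 and 2 lay above those of replicates 3 and 4. The log2 fold change was 1.23 ± 0.133 under RA (adjusted p = 5.94e-06), 1.82 ± 0.134 under PB (adjusted p = 2.19e-08) and 2.26 ± 0.135 under PB + RA (adjusted p = 5.05e-10).

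Per kilobase of exon, the neuronal isotypes TUBB2A, TUBB2B, TUBB3 and TUBB4A together made up 35.2% ± 0.926 (SD, n = 4) of β-tubulin transcripts in DMSO, 47.5% ± 1.15 in RA, 58.5% ± 0.9 in PB, and 69.5% ± 1.46 under PB + RA. TUBB4B took 56.4%, 44.8%, 35.7% and 24.7% in the same order, and TUBB3 17.6%, 22.5%, 27.9% and 30.8%. In PB + RA, TUBB3 was the leading β-tubulin by this length in all 4 libraries, at 1.19 to 1.35 times TUBB4B, while in DMSO it was at 0.297 to 0.327 times. By the length of the longest transcript TUBB3 also led in all 4 PB libraries, with 32.4 to 34.5% against 28.7 to 29.9% for TUBB4B. In CPM without a length, TUBB3 averaged 745 and TUBB4B 658 already in DMSO. The exon length used was 7421 bases for TUBB3 and 2037 for TUBB4B, so the leading gene and the size of the shares depend on the length chosen. TUBB2B did not follow the order of the family: its share was 11.9% in RA and 11.3% in PB. Total β-tubulin was 573 ± 23.4 CPM per kb in DMSO, 537 ± 30.6 in RA, 470 ± 8.97 in PB, and 452 ± 16.2 under PB + RA. The 2 groups given PB lay below DMSO in every library.

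The γ-tubulins divided as well. TUBG1, the ubiquitous γ-tubulin of the centrosome, and TUBG2, which is enriched in brain, lie 44 kb apart on chromosome 17 (hg19, 40761659 to 40767256 and 40811302 to 40819024). TUBG1 measured 180, 174, 174 and 173 CPM in DMSO, 131, 129, 121 and 129 in RA, 92.6, 92.3, 104 and 98.5 in PB, and 66.8, 66.8, 68.9 and 67.3 in PB + RA, with no overlap between groups. It fell by 0.85 ± 0.0476 on the log2 scale under PB (adjusted p = 1.03e-09) and by 1.41 ± 0.0484 under PB + RA (adjusted p = 8.98e-13). TUBG2 stayed between 23.4 and 38.3 CPM with log2 values of -0.08, 0.16 and 0.32 in RA, PB and PB + RA and 0 calls. Its share of γ-tubulin transcripts was 19.8% in DMSO (range 17.8 to 20.6), 24.5% in RA (21.6 to 26.0), 33.2% in PB (32.0 to 34.8) and 44.9% in PB + RA (43.2 to 46.5), without overlap. The plot of isotype shares sets the 3 families side by side.

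**Figure D2:**
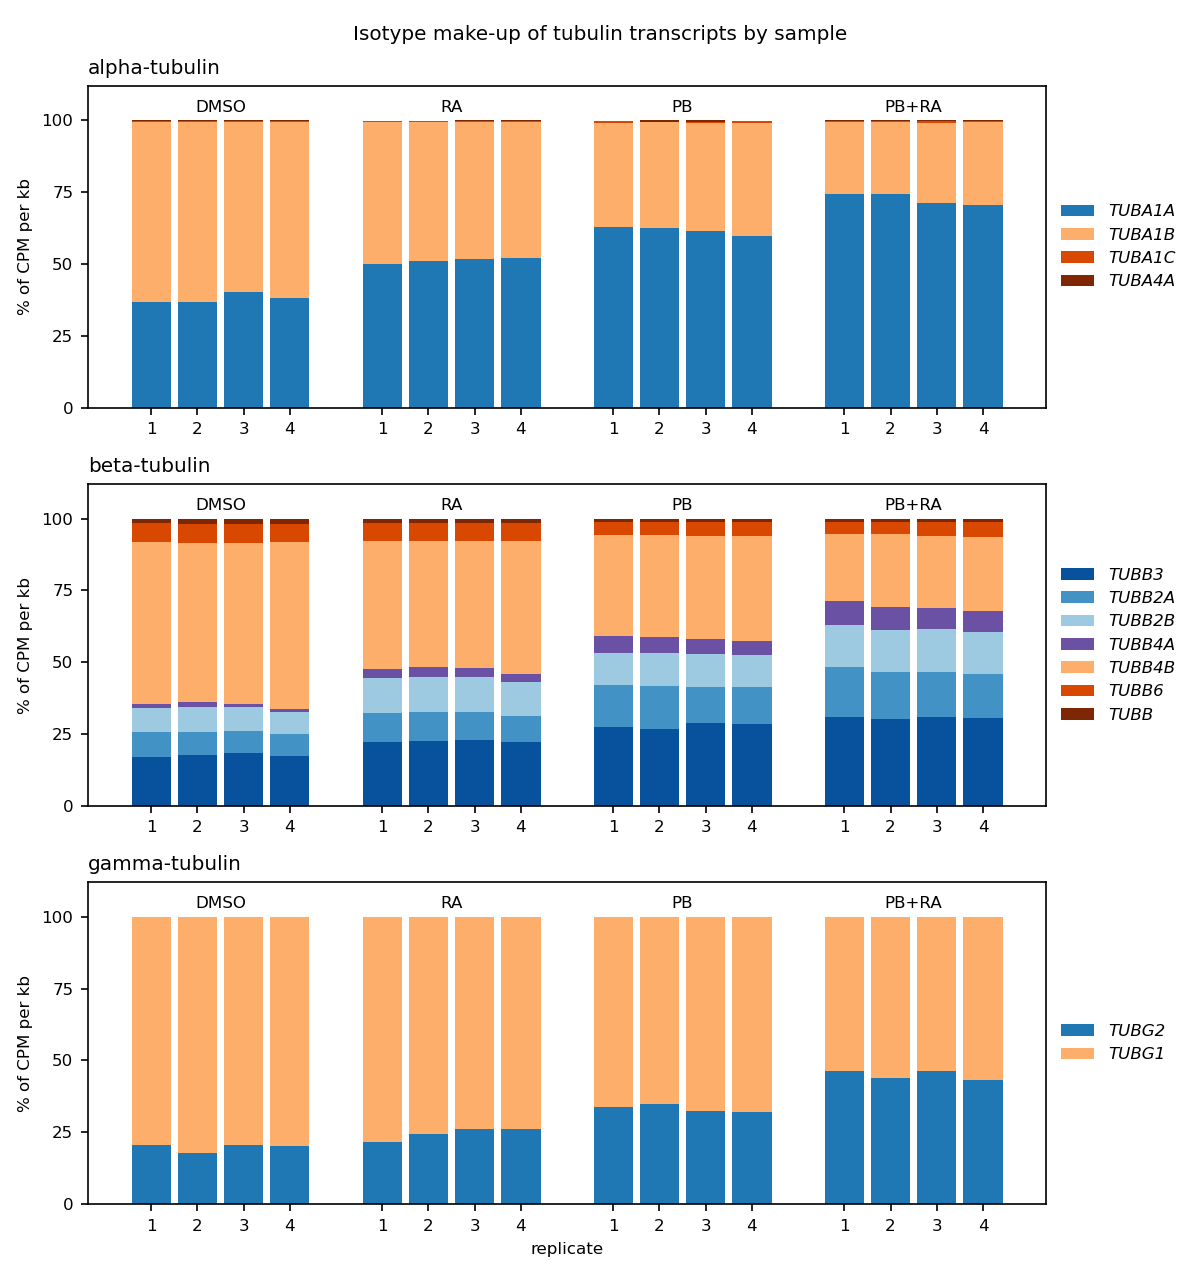
Share of each isotype (y axis, % of the family's summed CPM per kb of exon) in each of the 16 libraries (x axis, replicate number within group), for α-, β- and γ-tubulin. Blue and purple mark neuronal isotypes and orange to brown general ones; the neuronal part of β-tubulin is 33.9 to 36.0% in the DMSO libraries and 68.0 to 71.5% in the PB + RA libraries.

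Isotype shares rest on closely related sequences. Between 0.946% (TUBB6) and 55.9% (TUBA1B) of the 50-base stretches of each tubulin recur in another gene, whereas for most of the other members the figure is below 1%. How reads shared between genes were counted is not stated, so the size of the shares is uncertain for this reason too. The family totals behind them include TUBB and TUBA1C, whose levels are uncertain. The SDs of the shares give only the spread between libraries. TUBB2A, TUBB2B, TUBB6 and TUBG1 also overlap a less abundant gene on the opposite strand. The order of the groups was the same when the length of the longest transcript was used.

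The structural MAPs, which bind along the microtubule lattice, gave 4 rises of 9 under PB, 2 under RA and 4 under PB + RA, where 16.9%, 10.8% and 24% of all genes rose. MAPT encodes tau, the axonal MAP. It measured 13.3, 12.7, 11.7 and 12.6 CPM in DMSO, 24.6, 24.7, 22.9 and 22.5 in RA, 45.1, 40.6, 46.7 and 40.8 in PB, and 77.2, 62.6, 67.1 and 62.6 in PB + RA. The groups were fully separate. Its log2 fold change was 0.91 ± 0.0782 under RA (adjusted p = 4.92e-07), 1.78 ± 0.0783 under PB (adjusted p = 1.19e-10) and 2.39 ± 0.0789 under PB + RA (adjusted p = 6.75e-13).

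MAP6, which makes microtubules resistant to cold, measured 15.2, 12.7, 13.9 and 14.9 CPM in DMSO, 28.3, 27.7, 28.4 and 28.9 in RA, 37.1, 26.1, 45.0 and 42.0 in PB, and 61.0, 42.3, 61.6 and 53.9 in PB + RA. Replicate 2 was the lowest library of each of the 4 groups, and PB overlapped both RA and PB + RA. The log2 fold change was 0.99 ± 0.145 under RA (adjusted p = 9.59e-05), 1.40 ± 0.145 under PB (adjusted p = 7.65e-07) and 1.92 ± 0.146 under PB + RA (adjusted p = 8.64e-09).

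MAP7, a general MAP that recruits kinesin-1 to microtubules, followed another order. It measured 5.96, 6.24, 8.82 and 8.94 CPM in DMSO, 6.68, 6.63, 9.83 and 6.53 in RA, 26.2, 29.4, 33.8 and 29.6 in PB, and 21.3, 17.5, 23.1 and 19.9 in PB + RA. The RA libraries overlapped DMSO, and every PB + RA library lay below every PB library. It rose by 1.99 ± 0.158 on the log2 scale under PB (adjusted p = 3.62e-08) and 1.42 ± 0.158 under PB + RA (adjusted p = 6.28e-07), and was at -0.02 ± 0.161 under RA (adjusted p = 0.935).

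MAP1A, the MAP1 of mature neurons, rose under PB (0.57 ± 0.0742, adjusted p = 6.93e-06) and PB + RA (0.74 ± 0.0744, adjusted p = 1.86e-07), and its log2 under RA was -0.18. The PB call was lost without PB replicate 1 (log2 0.49), and correcting for GC content and gene length ended both (0.41 and 0.48). The other 5 structural MAPs had no call. MAP1B, which acts in growing axons, reached 0.50 in PB + RA and the dendritic MAP2 0.41. MAP9 was at 0.49 in PB, the general MAP4 at 0.28 in PB + RA, and MAP1S at -0.20 in PB + RA.

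The doublecortin family, whose proteins bind between protofilaments of growing neuronal microtubules, held the largest change under PB + RA. DCX measured 18.1, 14.5, 17.4 and 16.4 CPM in DMSO, 76.4, 73.3, 89.0 and 81.2 in RA, 123, 88.0, 126 and 116 in PB, and 203, 153, 210 and 241 in PB + RA. Both single agents lay apart from DMSO and from PB + RA, and overlapped each other in 1 PB library. The log2 fold change was 2.26 ± 0.136 under RA (adjusted p = 1.56e-08), 2.77 ± 0.138 under PB (adjusted p = 5.81e-10) and 3.57 ± 0.141 under PB + RA (adjusted p = 6.52e-12).

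DCLK1, which joins doublecortin domains to a kinase, measured 50.7, 58.9, 70.2 and 64.6 CPM in DMSO, 162, 165, 196 and 178 in RA, 136, 119, 121 and 120 in PB, and 231, 227, 246 and 252 in PB + RA. Here RA exceeded PB in every library. It rose by 1.51 ± 0.0859 on the log2 scale under RA (adjusted p = 4.57e-09), 1.02 ± 0.0854 under PB (adjusted p = 5.81e-08) and 1.94 ± 0.0868 under PB + RA (adjusted p = 1.26e-11). Its relative DCLK2 rose under RA (0.60 ± 0.0603, adjusted p = 2.24e-06), which correcting for GC and length took below the minimum (0.48), and was at 0.07 under PB and 0.34 under PB + RA.

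The collapsin response mediators, which bind tubulin dimers and relay guidance signals in axons, did not move as 1 group. DPYSL4 measured 81.4, 64.9, 72.8 and 75.6 CPM in DMSO, 158, 127, 137 and 139 in RA, 157, 144, 166 and 156 in PB, and 244, 205, 205 and 208 in PB + RA. The single agents overlapped each other and lay between DMSO and PB + RA. The log2 fold change was 0.92 ± 0.0816 under RA (adjusted p = 6.47e-07), 1.08 ± 0.0818 under PB (adjusted p = 2.11e-08) and 1.52 ± 0.0824 under PB + RA (adjusted p = 1.02e-10). DPYSL3 rose under RA (0.96 ± 0.0752) and PB + RA (0.82 ± 0.0751) and was at 0.22 under PB. CRMP1 rose under PB (0.60 ± 0.0462) and PB + RA (0.58 ± 0.0462), both under the minimum once GC and length were corrected for (0.49 and 0.38), and was at 0.44 under RA. DPYSL2, the founding member, stayed between -0.14 and 0.05.

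DPYSL5 was the neuronal member that fell. It measured 205, 211, 187 and 195 CPM in DMSO, 258, 264, 234 and 231 in RA, 115, 99.2, 176 and 174 in PB, and 80.9, 60.1, 120 and 109 in PB + RA. All RA libraries lay above and all PB and PB + RA libraries below DMSO. With PB + RA it fell by 1.14 ± 0.202 on the log2 scale (adjusted p = 0.000144). With PB its log2 was -0.50 ± 0.199 (adjusted p = 0.0463), just short of the minimum. With the replicate number as a block it was called lower, at -0.53 (adjusted p = 0.0432), as it was by DESeq2 (-0.52), by limma-voom (-0.54), with RLE size factors (-0.52) and without any 1 of 10 libraries (-0.52 to -0.65). The PB value was -0.97 in replicates 1 and 2 alone and -0.17 in replicates 3 and 4 alone, and the PB + RA values were -1.59 and -0.80.

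TAGLN3, a neuronal relative of transgelin, had the second largest rise under PB + RA and the largest point estimate under each agent alone, within the SE of DCX under RA. It measured 13.5, 14.9, 10.4 and 8.83 CPM in DMSO, 67.0, 80.1, 43.1 and 43.3 in RA, 115, 130, 69.5 and 77.6 in PB, and 158, 161, 87.1 and 93.6 in PB + RA. All treated libraries lay above DMSO, but neighbouring treatments overlapped, and replicates 1 and 2 exceeded replicates 3 and 4 in each group. The log2 fold change was 2.29 ± 0.3 under RA (adjusted p = 5.2e-05), 3.04 ± 0.305 under PB (adjusted p = 1.04e-06) and 3.36 ± 0.307 under PB + RA (adjusted p = 1.71e-07). In replicates 1 and 2 alone the PB + RA value was 3.46, and in replicates 3 and 4 alone 3.15.

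**Figure D3:**
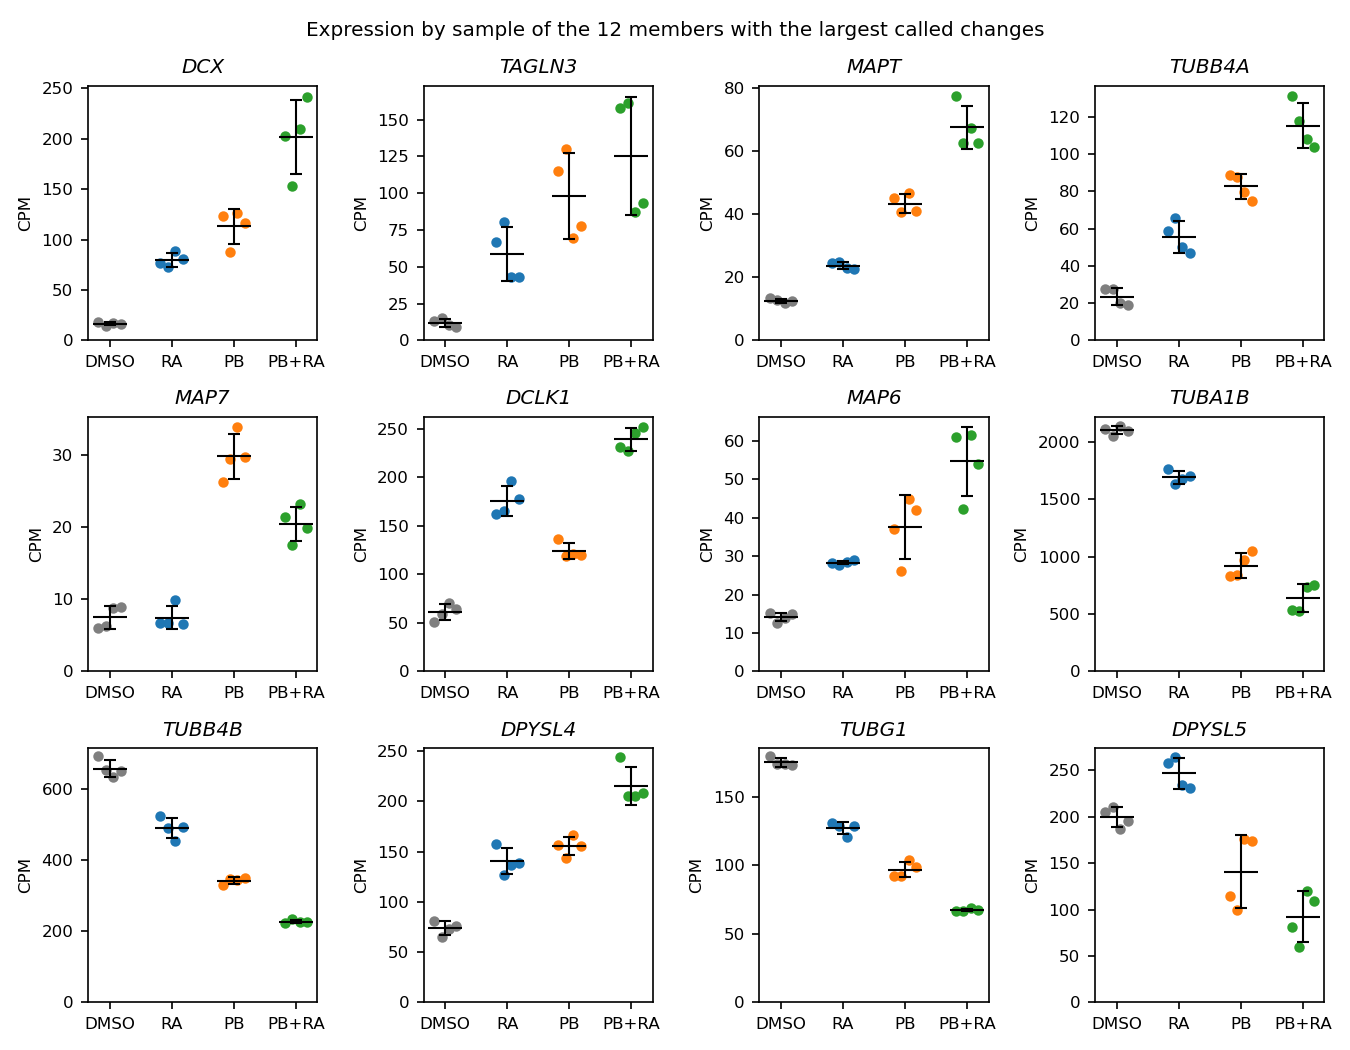
CPM (y axis, from 0) of the 12 members with the largest called changes in each of the 16 libraries (points, 4 per group on the x axis), with group means and SD bars. Group means of the rising members increase from DMSO through RA and PB to PB + RA except for DCLK1, where RA exceeds PB, and MAP7, where RA is at the level of DMSO and PB exceeds PB + RA.

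Plus-end binding proteins differed by gene. MAPRE3, the end-binding protein enriched in neurons, rose under PB (0.87 ± 0.0534, adjusted p = 2.58e-09) and PB + RA (1.11 ± 0.0535, adjusted p = 2.75e-11), from 63.3 to 66.2 CPM in DMSO to 135 to 158 CPM in PB + RA. The general MAPRE1 was at -0.28 under PB and -0.40 under PB + RA, with no call. MAPRE2 was called under PB at 0.50 ± 0.133, at the threshold itself. This call was lost with RLE size factors, with DESeq2 and without any 1 of 13 libraries (log2 0.41 to 0.49).

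The severing enzyme KATNA1, the catalytic subunit of katanin, fell under PB (-0.81 ± 0.0707, adjusted p = 9.01e-08) and PB + RA (-0.76 ± 0.0703, adjusted p = 7.5e-08), from 25.6 to 31.8 CPM in DMSO to 16.5 to 17.6 in PB + RA. SPAST, encoding spastin, lay between 0.05 and 0.24 in the 3 comparisons without a call. TTLL7, which adds glutamate chains to β-tubulin, rose under PB (0.59 ± 0.135, adjusted p = 0.00145), a call lost without PB replicate 4 (0.49). Of the minus-end binding proteins CAMSAP3 was called under PB at 0.50 ± 0.102, a call lost without any 1 of 14 libraries (0.44 to 0.50), while CAMSAP1 and CAMSAP2 had no call and stayed between -0.05 and 0.32.

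To ask what each agent adds to the other, PB + RA was compared with PB and with RA. Added to PB, RA raised 5 members, against 9.02% of all genes, and lowered 6, against 7.27%. The 5 that rose were all neuronal: DCLK1 (0.92 ± 0.0843), DCX (0.80 ± 0.125), MAPT (0.61 ± 0.0738), DPYSL3 (0.59 ± 0.0748) and MAP6 (0.51 ± 0.139). Of the 6 that fell, TUBA4A (-1.05 ± 0.236), TUBB4B (-0.62 ± 0.0471), MAP7 (-0.57 ± 0.15), TUBA1B (-0.56 ± 0.105) and TUBG1 (-0.55 ± 0.0481) were general and DPYSL5 (-0.64 ± 0.201) neuronal. Several of these lay near the fold minimum. Leaving out 1 library ended the calls of TUBA1B (-0.48 to -0.50, without PB replicate 4 or PB + RA replicate 1 or 2), MAP6 (0.37 to 0.45, without PB replicate 2 or PB + RA replicate 1 or 3) and DPYSL5 (adjusted p = 0.0515 to 0.0789, without PB replicate 3 or 4 or PB + RA replicate 1 or 2). Without PB replicate 3 the calls of TUBG1 (-0.50) and MAP7 (-0.48) ended too, leaving 3 falls.

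Added to RA, PB raised 10 members, against 14.9% of all genes, and lowered 8, against 14.1%. The neuronal members accounted for 8 rises and 1 fall, with a median of 0.39, and the general members for 2 rises and 7 falls, with a median of -0.16. The median over all genes was 0.00265. The largest rises were those of MAPT (1.49 ± 0.0758), MAP7 (1.44 ± 0.159), DCX (1.31 ± 0.127), TAGLN3 (1.08 ± 0.276), TUBB4A (1.03 ± 0.129) and MAPRE3 (1.01 ± 0.0534). The largest falls were those of DPYSL5 (-1.44 ± 0.203), TUBA1B (-1.43 ± 0.107), TUBB4B (-1.13 ± 0.0474) and TUBG1 (-0.94 ± 0.0481). The rise of TUBA1C (0.64 ± 0.236) was lost without RA replicate 2 or 4 or PB + RA replicate 1, 3 or 4 (adjusted p = 0.0502 to 0.109). Both comparisons share the PB + RA libraries, so their counts are not independent.

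The interaction asks whether the change under PB + RA equals the sum of the single log2 changes. It lay below additive for 4 members, against 3.02% of all genes, and above additive for 0, against 0.415%. Above additive, 2 members had an unadjusted p under 0.05 and DESeq2 and limma-voom each called 0. All 4 calls were neuronal members that rose with each agent. For DCX the single changes summed to 5.02 and the combined change was 3.57, a difference of -1.45 ± 0.182 (adjusted p = 0.000409). For TAGLN3 the sum was 5.33 against 3.36 (-1.963 ± 0.402, adjusted p = 0.0108), for TUBB4A 3.05 against 2.26 (-0.78 ± 0.183, adjusted p = 0.0196) and for DCLK1 2.53 against 1.94 (-0.59 ± 0.119, adjusted p = 0.00805).

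With the replicate number as a block, 7 members were below additive, since TUBA4A (-0.93), MAPRE2 (-0.58) and MAP7 (-0.55) were added (adjusted p = 0.000837, 9.64e-06 and 0.0101). For TUBA4A the single changes summed to -0.09 and the combined change was -1.02, so below additive there means a deeper fall and not a smaller rise. Without PB replicate 2 the count was also 7. The call of TUBB4A ended when DMSO replicate 3, PB replicate 1 or PB + RA replicate 4 was left out (adjusted p = 0.0502 to 0.0636), and that of DCLK1 without DMSO replicate 1 or RA replicate 3 (-0.47 and -0.49). Among the falling general tubulins other than TUBA4A the departures were smaller. The interaction was -0.24 for TUBA1B (95% interval -0.53 to 0.05), -0.18 for TUBB4B (-0.31 to -0.05) and -0.09 for TUBG1 (-0.22 to 0.05), none of them called. The interaction was negative for 34 of the 40 members. Over all genes tested it was positive for 43%, so most genes were negative as well. Its median was -0.17 over the members and -0.04 over all genes. A negative value stands for a smaller rise in some members and a deeper fall in others.

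**Figure D4:**
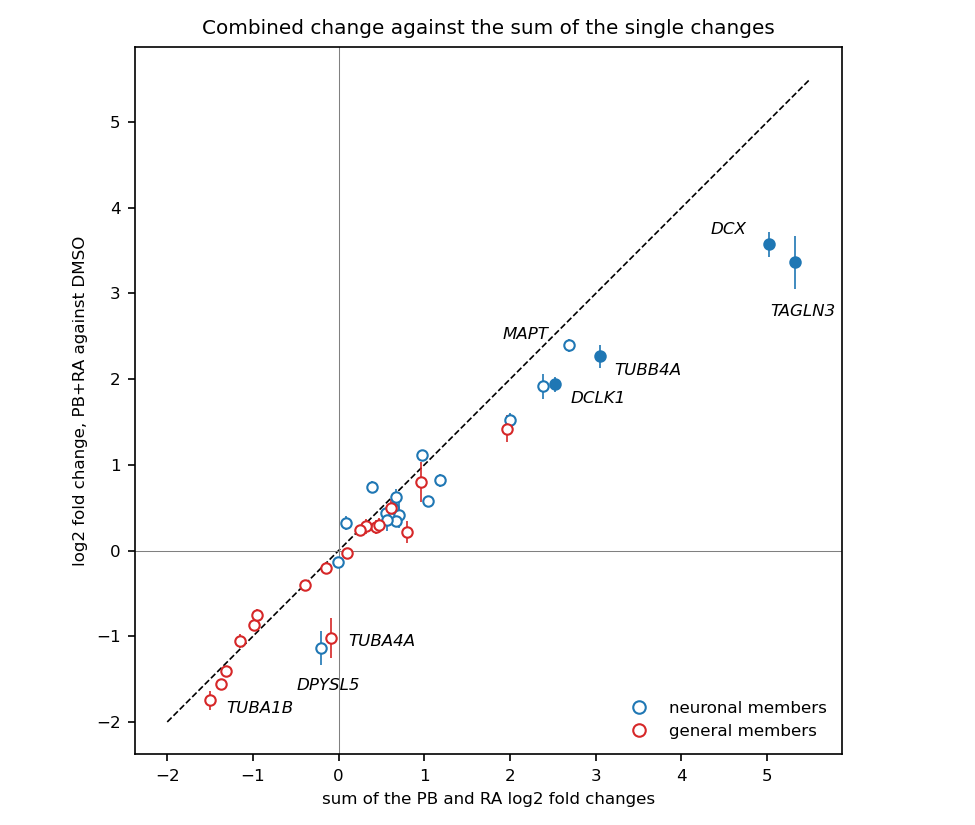
Log2 change in PB + RA relative to DMSO (y axis, with SE bars) against the sum of the PB and RA log2 fold changes (x axis) for the 40 members, neuronal in blue and general in red; filled points were called in the interaction and the dashed line marks additivity. DCX and TAGLN3 lie furthest below the line, while TUBA1B, TUBB4B and TUBG1, at -0.24, -0.18 and -0.09 from it, lie closer.

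Other genes of the pathway were read from lists by function. Of 9 further tubulins 7 were in the table and 3 were tested; TUBD1, the δ-tubulin of centrioles, fell under PB + RA by 0.87 ± 0.11 on the log2 scale and the other two had no call in the comparisons with DMSO. Of 28 genes for tubulin folding and modification 25 were tested, and 7 rose and 5 fell under PB + RA. The rises included the glutamylases TTLL11 (1.07 ± 0.0761) and TTLL1 (0.91 ± 0.0832) and the detyrosinating peptidase VASH1 (0.72 ± 0.171). The falls included the glutamylase TTLL4 (-1.004 ± 0.117), the deglutamylase AGBL5 (-0.95 ± 0.0726) and TTLL12 (-0.72 ± 0.042). These shares, 28% and 20%, stand beside the same 24% and 17.9% of all genes.

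Of 39 other MAPs and plus-tip proteins 36 were tested, and 11 rose and 6 fell under PB + RA. These shares, 30.6% and 16.7%, stand beside 24% and 17.9% of all genes. CLIP3 averaged 35.7 CPM in DMSO, 71.8 in RA, 88.8 in PB, and 162 under PB + RA, a log2 change of 2.16 ± 0.131 for PB + RA, and CLIP2 rose by 1.495 ± 0.0755. The microtubule-binding EML2 rose by 1.46 ± 0.153. GAS2L1, which links actin to microtubules, fell by 1.94 ± 0.177, the dynein regulator NDE1 by 1.91 ± 0.152 and FIGNL1 by 1.28 ± 0.171.

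The spindle proteins moved mostly one way. Of 32, all tested, 2 rose and 20 fell under PB and 25 fell under PB + RA, against 16.9% of all genes higher and 11.3% lower under PB and 17.9% lower under PB + RA. Their medians were -0.78 and -1.20, with 0.03 and 0.04 over all genes. The median under RA was -0.28, with 0.01 over all genes. Their summed level was 3713 to 3798 CPM in DMSO, 3185 to 3335 in RA, 2399 to 2629 in PB and 1763 to 1939 in PB + RA. NUSAP1, which bundles spindle microtubules, averaged 240 CPM in DMSO and 31.4 in PB + RA (-2.97 ± 0.176). HMMR fell by 2.53 ± 0.125 and CKAP2L by 2.44 ± 0.154. The general tubulins TUBA1B, TUBB4B and TUBG1 had the same order of groups, with DMSO above RA, RA above PB and PB above PB + RA. The part of cell division in these levels was not tested.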

How the data were processed

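RNA-seq of 16 SK-N-BE(2)C libraries was analysed, with groups and replicate numbers from the sample titles. The authors selected polyadenylated RNA, made directional libraries and sequenced paired ends of 50 bases. According to the submitters' processing notes, reads were trimmed with Trim Galore 0.6.4, aligned to hg19 with STAR 2.6.1d and compared with DESeq2 1.32.0. The annotation release and the strand counted are not given in the sources used here. The deposited counts are reads per gene without normalization. The deposited CPM were made by the authors from each library's total and equal count over total within 5e-12. A deposited table of the authors' own fold changes and p-values was not used.

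Counts were tested in R 4.3.3 with edgeR 4.0.16 (filterByExpr, TMM, robust quasi-likelihood, a coefficient per group, all 16 samples), with Benjamini-Hochberg adjustment over 15415 genes. Every adjusted p is from this fit unless another tool is named. SE is the absolute log2 fold change over the square root of F. DESeq2 1.42.0, limma-voom (limma 3.58.1), RLE size factors, other filters and thresholds, a GC and length correction (96.3% of tested genes matched), a replicate block, replicates 1 and 2 or 3 and 4 alone and leaving out each library were alternatives. The procedure was tested on simulated data. Levels between genes used CPM per kb of exon (GENCODE models on GRCh37, the assembly of hg19). Promoters came from RefSeq windows on GRCh38.p14, used for sequence only.

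Same-numbered samples deviated together from their group means in all 24 pairs (r 0.330 to 0.573). Differently numbered samples on the same side of the replicate split given above also did so, in most cases with a lower r. PB replicate 4 had r 0.4466 with PB + RA replicate 3 and 0.4352 with PB + RA replicate 4. It had r 0.3576 with RA replicate 3 and 0.3563 with RA replicate 4. For replicates 1 and 2, every same-numbered r (0.3298 to 0.5731) exceeded every r across the 2 numbers (0.1551 to 0.3093). For replicates 3 and 4 the 2 kinds of r overlapped, as in the pairs of PB replicate 4 above. The split alone can give same-numbered samples a positive r. What each number, which comes from the titles, stands for was not tested. The study's methods describe replicates as separate passages of the line, and no label ties a number to a passage or day.

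Members given in full were the 12 with the largest called changes against DMSO at a mean of at least 5 CPM, TUBB3, and the most abundant α- and β-tubulin. Members called in the interaction were named, and the up to 3 largest called rises and falls of each list in PB + RA at the same mean. Other members were described by role. The members, classes and lists were chosen with earlier results of these data known.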

Additional observations from a re-analysis of the deposited data

Results flagged for a closer look

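For 14 members the 4 libraries of each of the 4 groups were examined for 1 that lies far from the rest, judged by its gap to the nearest library over the group's range (Dixon's criterion at the 95% level). This was met in 5 of 56 groups, and chance alone gives about 1 in 20. RA replicate 3 was at 9.83 CPM for MAP7 against 6.53 to 6.68 in the other libraries. PB replicate 1 was at 136 CPM for DCLK1 against 119 to 121. PB + RA replicate 1 was at 244 CPM for DPYSL4 against 205 to 208. DMSO replicate 1 was at 180 CPM for TUBG1 against 173 to 174, and DMSO replicate 4 at 705 CPM for TUBB3 against 756 to 765.

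The effect of RA differed with and without PB, by the interaction term itself, for TAGLN3 (-1.963), DCX (-1.45), TUBB4A (-0.78) and DCLK1 (-0.59), all below additive on the log2 scale.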

How the results depend on the processing

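Of 34 calls of the members named in full against DMSO and in the interaction, 31 kept their direction and threshold in every alternative that kept the fold minimum, and 0 reversed. The other 3 were interaction calls: DCX in replicates 1 and 2 alone (-1.45, adjusted p = 0.0587), TUBB4A, and DCLK1, which the GC and length correction (-0.47) and replicates 3 and 4 alone (-0.39) also ended. TUBB4A was also lost with no filter on low counts (-0.74, adjusted p = 0.0546). With no fold minimum the counts were 25 higher for PB, 15 higher and 5 lower for RA, 27 higher for PB + RA, 11 higher against PB, 18 higher against RA and 7 below additive. With a log2 minimum of 1 they were 8 higher and 1 lower for PB, 4 higher for RA, 9 higher for PB + RA, 0 higher and 1 lower against PB, 6 higher and 3 lower against RA, and 2 below additive. At that minimum the members lower with PB + RA were TUBA1B (-1.75), TUBB4B (-1.56), TUBG1 (-1.41), DPYSL5 (-1.14), TUBB (-1.06) and TUBA4A (-1.02). Counts not given for either minimum changed by a smaller ratio or not at all. The shares of all genes at these other minima were not computed, so these counts show only how the calls depend on the threshold. RA lowered 1 member with no filter on low counts, 2 after the GC and length correction and 1 in replicates 3 and 4 alone. The GC and length correction moved the median of all genes for RA from 0.01 to -0.09. The replicate block gave 7 members below additive and added the call of DPYSL5 with PB, and changed no other member's call. Leaving out 1 library gave 3 to 6 falls against PB and 3 to 7 members below additive. The neuronal median exceeded the general one by 0.54 for PB (0.60 in replicates 1 and 2, 0.50 in replicates 3 and 4, 0.50 to 0.60 without 1 library), 0.51 for RA (0.48 after GC and length correction, 0.44 to 0.55 without 1 library) and 0.32 against PB (0.39 in replicates 3 and 4, 0.295 to 0.38 without 1 library). With the longest transcript as length, the neuronal share in DMSO, RA, PB and PB + RA was 44.4, 57.6, 67.5 and 77.4% of α-tubulin, 39.4, 51.7, 62.8 and 72.4% of β-tubulin, and 24.2, 29.6, 39.2 and 51.4% of γ-tubulin. Where a cause is not plain from the alternative itself, the cause was not tested.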
